A study of Homo sapiens with 16 samples.

Results

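The comparison described here set libraries of HCT116 cells treated with an inhibitor of the histone methyltransferase G9a directly against libraries of HCT116 cells given a small interfering RNA (siRNA) against G9a. Members were chosen from the sample labels alone: 2 inhibitor libraries and 2 siRNA libraries, 4 of the 8 libraries and 8 of the 16 sequencing runs of the series. HCT116 is an established human colon cancer line, and all groups were of this line with no genetic change named in the labels. The inhibitor cells received BIX 01294, a small molecule, at 0.5 µM for 72 h. The siRNA cells received 10 nM of a G9a siRNA with a lipid transfection reagent and were kept for 72 h. The siRNA controls and the inhibitor controls, 2 libraries each, serve here as reference levels, and no source used here states their treatment. The protocols tie the transfection reagent to the siRNA alone, so that compound, transfection and target differ at once between the sides and cannot be told apart. Each library was sequenced in 2 runs, which were averaged and counted as 1 replicate, giving n = 2 for every group. Whether libraries of a group stem from separate cultures is not stated in the labels, so the p-values reflect library-to-library spread that may be technical.

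G9a, encoded by EHMT2, methylates histone H3 at lysine 9 (H3K9) and sets mostly the dimethyl mark of silent genes in euchromatin. It works as a heterodimer with GLP, encoded by EHMT1, and the zinc finger protein WIZ holds the pair on chromatin. BIX 01294 occupies the groove that binds the histone tail and so blocks the enzyme without acting on its messenger RNA, whereas a siRNA leads the Argonaute complex to cut the messenger RNA and so lowers the protein. The comparison is therefore meant to set a blocked enzyme against a depleted one. Enzyme activity, G9a protein and histone methylation were not measured in these libraries, so block and depletion are assumed.

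Levels are given in FPKM, which divides the fragments of a gene by its transcript length and by the library total, and the deposited files hold no counts. Between 21733 and 26601 genes were above 0 in a run, and the 6 most abundant RNAs took 48.5% to 55.8% of the summed FPKM of a run. The fragments behind a gene, as implied by the deposited confidence intervals for genes above 5 FPKM, had a median of 130 to 332 per run in the 4 libraries compared, lowest in siRNA replicate 2 and inhibitor replicate 1, and of 98.2 to 421 over all runs. This reading takes the intervals to hold counting error alone. After scaling, 12846 genes that averaged 1 FPKM or more and spanned 300 bases or more were tested. Across genes, log2 levels correlated at r = 0.995 between the inhibitor libraries, at 0.993 between the siRNA libraries and at 0.990 to 0.992 between the sides. The inhibitor controls stood apart from the other 6 libraries (r = 0.957 to 0.974). Of 15 markers of colon epithelium, EPCAM, KRT8, KRT18 and KRT19 were high in all 8 libraries and CEACAM5, MUC2 and TFF3 were listed at 0 in all, with a summed level of 689.3 and 707.0 FPKM in the inhibitor libraries and 648.7 and 634.3 in the siRNA libraries. The 14 fibroblast markers, included because the series' protocol also names foreskin fibroblasts, summed to 21.5 and 20.3 FPKM with the inhibitor and 18.4 and 19.1 with the siRNA, most of it VIM, while LUM and FAP were listed at 0 throughout. RNA28S5, the 28S ribosomal RNA that total RNA kits aim to remove, was at 2365 and 1045 FPKM in the inhibitor libraries and 5174 and 18930 in the siRNA libraries, a log2 difference of -2.65 that was not called (adjusted p = 0.118). Its part in the results below was not tested.

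EHMT2, the gene targeted by the siRNA (chromosome 6, 31847536 to 31865464 in hg19), had the largest difference of all called genes. It stood at 19.7 and 18.9 FPKM in the inhibitor libraries and at 4.68 and 4.54 in the siRNA libraries. The siRNA controls were at 15.9 and 17.8 FPKM and the inhibitor controls at 24.7 and 21.0, so the inhibitor libraries lay between the 2 kinds of control and the siRNA libraries lay far below every other library. The means were 19.3 ± 0.517 and 4.61 ± 0.0997 FPKM (SD, n = 2), a 4.19-fold difference, and the log2 difference was 1.86 ± 0.09 (SE, limma adjusted p = 0.000104). All log2 differences are inhibitor minus siRNA on the log2(FPKM + 1) scale, which understates the change of low genes, and a gene is called when limma's Benjamini-Hochberg adjusted p over all genes tested is under 0.05. EHMT2 was called under all 22 alternative settings that were run, with log2 differences from 1.72 to 2.04. The level of EHMT2 checks the labels of the siRNA libraries and says nothing of enzyme activity in the inhibitor libraries.

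EHMT1, the gene of the partner enzyme GLP (chromosome 9, 140513444 to 140764468), was at 10.9 and 12.4 FPKM with the inhibitor and 9.09 and 10.2 with the siRNA. The libraries did not overlap, but the log2 difference of 0.25 ± 0.12 was not called (adjusted p = 0.292), and its 95% interval ran from -0.02 to 0.52. The siRNA controls were at 12.2 and 15.8 FPKM and the inhibitor controls at 25.5 and 24.0, so each side lay below its own controls. WIZ, the adaptor of the complex, was at 2.39 and 2.04 against 1.73 and 2.73 FPKM, with overlapping libraries and an interval from -0.41 to 0.43. A difference as large as that of EHMT2 therefore lies outside the interval of both partners.

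Between the sides, 216 of 12846 genes were called (1.68%), 144 higher in the inhibitor libraries (1.12%) and 72 lower (0.56%). Differences were small: their median size was 0.41 on the log2 scale, and 7 genes differed by a log2 of at least 1. Libraries of the 2 sides did not overlap for 6746 genes (52.5% of those tested), with 3403 higher with the inhibitor (26.5%) and 3343 lower (26%). The 95% interval of the difference lay within a log2 of 0.5 either way for 9701 genes (75.5%) and within 1 for 12638 (98.4%), so for nearly all genes a difference above 2-fold on this scale was outside the interval. With 2 libraries against 2, an exact permutation test of a single gene cannot give a two-sided p below 0.333, and the calls rest on a spread that limma shares between genes and groups.

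**Figure D1:**
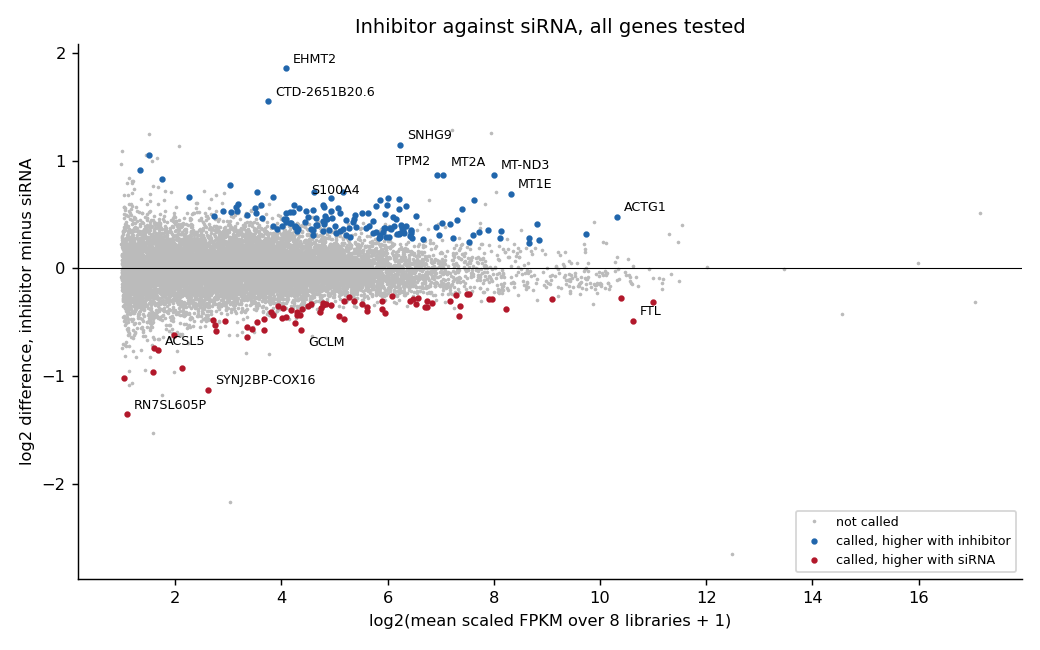
Log2 difference between inhibitor and siRNA libraries (vertical axis, inhibitor minus siRNA, n = 2 libraries each) against mean level over all 8 libraries (horizontal axis, log2 of scaled FPKM + 1), 1 point per gene tested. Blue points are the 144 genes called higher with the inhibitor and red points the 72 called lower. EHMT2 lies at the top, most called genes lie within 1 log2 unit of 0, and RNA28S5 is the uncalled point at the lower right.

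The number of called genes depended on each of the 4 libraries. Without inhibitor replicate 1 it was 8, without inhibitor replicate 2 it was 6, without siRNA replicate 1 it was 17 and without siRNA replicate 2 it was 48. It was 124 or 123 without inhibitor control replicate 1 or 2, and 145 without either siRNA control library, of which 44 were lower against 72 as reported. Scaling mattered as well: with FPKM as deposited, 595 genes were called and 583 of them (98%) were higher with the inhibitor, against 66.7% as reported, because the median gene then lay at a log2 of 0.15 instead of 0. All 216 genes kept their direction under every alternative in which they were tested. In all 216 the libraries of the sides did not overlap, so the direction could hardly change and is no separate support. EHMT2 and TPM2 were called under all 22 alternatives, 5 genes under at least 20, 11 under at least 18 and 22 under at least 15. Of the last 22, 20 were higher and 2 lower with the inhibitor. Of the 59 called genes chosen by the naming rules, EHMT2, TPM2, MT2A, DUSP5 and ERRFI1 stayed called whichever 1 of the 4 libraries was left out (adjusted p up to 0.0494). The other called genes missed the threshold in at least 1 such fit: 52 without inhibitor replicate 1 (adjusted p = 0.0562 to 0.314), 53 without inhibitor replicate 2 (0.073 to 0.21), 45 without siRNA replicate 1 (0.0628 to 0.186) and 36 without siRNA replicate 2 (0.0512 to 0.165). The control libraries enter the fit through the shared spread, the filter and the scaling, and leaving out 1 of them also ended calls: 15 of the 59 without siRNA control replicate 1, 15 without siRNA control replicate 2, 16 without inhibitor control replicate 1 and 15 without inhibitor control replicate 2, with adjusted p up to 0.0713. The called genes below are therefore given with the number of the 22 alternatives under which they were called.

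**Figure D2:**
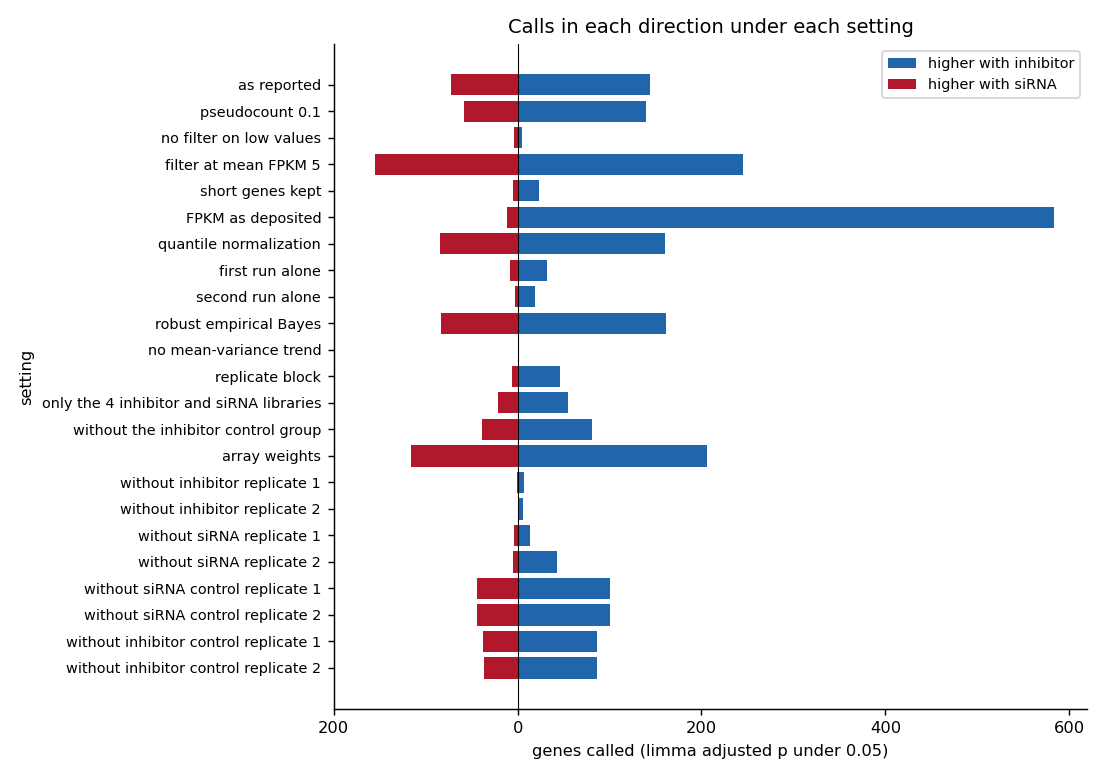
Number of genes called higher (blue, to the right) and lower (red, to the left) with the inhibitor, as reported and under each of the 22 alternative settings, 1 bar per setting. The count is 216 as reported and ranges from 2 without the mean-variance trend to 595 with FPKM as deposited.

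TPM2, the gene of beta-tropomyosin, which winds along actin filaments and governs their access to myosin (chromosome 9, 35681989 to 35691017), was the most stable difference after EHMT2. It was at 120.5 and 127.2 FPKM with the inhibitor and 65.4 and 70.0 with the siRNA. The siRNA controls, at 119.3 and 122.3, sat at the inhibitor level, and the inhibitor controls were higher, at 169.7 and 174.1. The log2 difference was 0.86 ± 0.05 (adjusted p = 0.000346, called in 22 of 22 alternatives, adjusted p up to 0.0369). Against their own controls, the siRNA libraries differed by -0.83 (adjusted p = 0.000503) and the inhibitor libraries by -0.47 (adjusted p = 0.000306). In those comparisons 2.13% and 36.5% of genes were called, and 0.0389% between the inhibitor libraries and the siRNA controls. They share libraries with the direct comparison and are no separate support for it.

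A pair of feedback inhibitors of growth factor signalling showed the same order of groups. ERRFI1, which encodes MIG6, a protein that binds and silences the EGF receptor (chromosome 1, 8064464 to 8086368), was at 66.4 and 67.3 FPKM with the inhibitor and 43.1 and 45.1 with the siRNA. DUSP5, a nuclear phosphatase that inactivates ERK (chromosome 10, 112257596 to 112271302), was at 68.9 and 66.8 against 42.2 and 43.4 FPKM. In both genes the siRNA libraries lay below the 6 others, with the siRNA controls at 62.4 to 62.9 for ERRFI1 and 59.8 to 64.5 for DUSP5. The log2 differences were 0.59 ± 0.05 and 0.65 ± 0.06 (limma adjusted p = 0.00229 for each), and both were called in 21 of 22 alternatives, all but the fit without a mean-variance trend (adjusted p = 0.0682 for each). AKAP12, a scaffold for protein kinases A and C, was at 179.9 and 173.0 FPKM against 118.2 and 122.6 (log2 0.55 ± 0.05, adjusted p = 0.00392, 19 of 22 alternatives). It lost its call without inhibitor replicate 1 (adjusted p = 0.0562). ERRFI1, DUSP5, AKAP12 and the others of the 20 smallest p-values were added to the named genes after their values were seen.

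**Figure D3:**
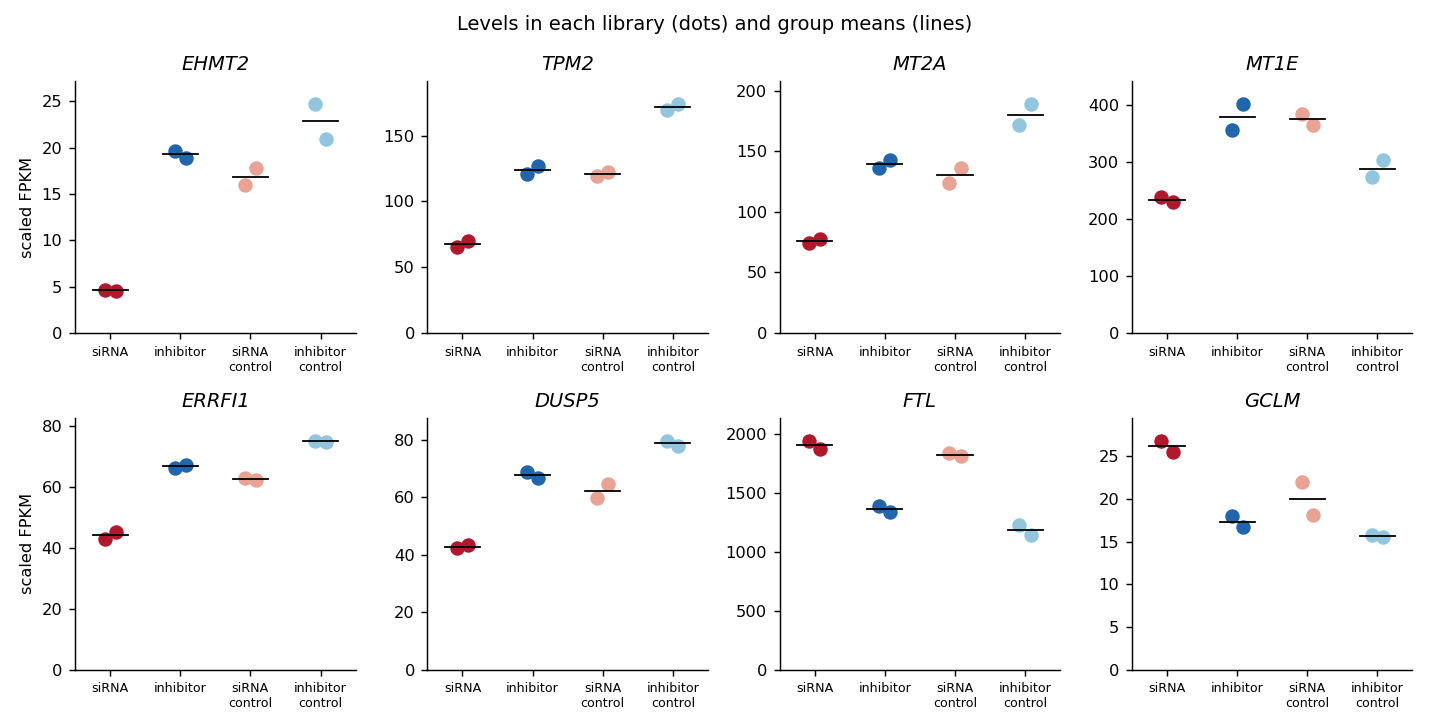
Scaled FPKM (vertical axes, from 0) of 8 genes in each library (dots) with the group mean (line), for siRNA, inhibitor, siRNA control and inhibitor control, 2 libraries a group. For EHMT2, TPM2, MT2A, MT1E, ERRFI1 and DUSP5 both siRNA libraries lie below all others, and for FTL and GCLM both lie above all others.

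The metallothioneins MT2A and MT1E were higher in the inhibitor libraries. Metallothioneins are small cysteine-rich proteins that bind zinc and copper, and the zinc-sensing factor MTF1 switches their genes on. Of 10 genes on the list of metallothioneins and zinc handling, 6 passed the expression filter. Of these, 2 were called higher and none lower, against 1.12% and 0.56% of all genes tested. The list median was a log2 of 0.48 against 0 over all genes tested. MT2A (chromosome 16, 56642111 to 56643409) was at 136.1 and 143.0 FPKM with the inhibitor and 73.9 and 77.9 with the siRNA. The siRNA controls were at 124.0 and 136.2 and the inhibitor controls at 171.3 and 189.0, so the siRNA libraries were the lowest of the 8. Its log2 difference was 0.87 ± 0.07 (adjusted p = 0.0016), called in 20 of 22 alternatives and missed without the filter on low values (adjusted p = 0.0563) and without a trend (0.0574). MT1E, at 56659387 to 56661024 in the same cluster, was at 356.0 and 401.2 against 237.9 and 229.5 FPKM (log2 0.69 ± 0.07, adjusted p = 0.00584, 19 of 22). Its siRNA controls were at 383.8 and 364.2. Its inhibitor controls, at 273.4 and 302.8, lay below the inhibitor libraries, unlike those of MT2A. Without inhibitor replicate 2, MT1E missed the threshold (log2 0.61, adjusted p = 0.073).

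Other members of the metallothionein list differed in the same direction without a call. MT1X was at 66.1 and 66.7 FPKM with the inhibitor and 56.0 and 47.9 with the siRNA (log2 0.35, adjusted p = 0.0668). MT1F was at 5.44 and 4.53 against 3.22 and 2.63 FPKM (log2 0.61, adjusted p = 0.224), and the zinc exporter SLC30A1 at 6.49 and 6.68 against 4.88 and 5.07 (log2 0.34, adjusted p = 0.0947). The libraries of the sides did not overlap in these 3 genes, as in 52.5% of all genes tested. MTF1, the factor itself, was at 2.22 and 2.77 against 3.07 and 2.72 FPKM, with overlapping libraries (log2 -0.16, adjusted p = 0.736). Metallothionein genes are near-identical copies in places, and reads could have been split between them, so the separate values of MT1E, MT1F and MT1X are uncertain.

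The promoters of 2 metallothionein genes are shown for their known control element, MT2A as a called member and MT1X as one that was not called. They are the 250 bases before the start of the gene, 5′ to 3′ on the plus strand, from RefSeq on GRCh38.p14, MT2A at chr16:56608334-56608583 and MT1X at chr16:56682220-56682469. Capitals mark the core of the metal response element, TGCACNC or TGCGCNC on either strand.
MT2A: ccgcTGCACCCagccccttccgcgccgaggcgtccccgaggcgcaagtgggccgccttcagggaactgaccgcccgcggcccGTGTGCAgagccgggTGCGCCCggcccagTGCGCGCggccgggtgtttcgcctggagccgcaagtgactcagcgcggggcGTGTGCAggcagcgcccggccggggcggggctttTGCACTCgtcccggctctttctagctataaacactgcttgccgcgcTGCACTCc
MT1X: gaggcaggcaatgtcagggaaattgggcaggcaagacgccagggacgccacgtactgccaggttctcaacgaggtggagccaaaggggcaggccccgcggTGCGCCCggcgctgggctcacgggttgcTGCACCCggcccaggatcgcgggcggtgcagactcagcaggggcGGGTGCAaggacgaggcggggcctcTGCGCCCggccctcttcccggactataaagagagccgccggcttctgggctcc
MT2A held 7 matches and MT1X held 4, where 24.7% of 27305 RefSeq promoters cut to the same window held at least 1 and 1.56% held 3 or more. The MT2A window also holds a match to the AP-1 core TGACTCA that overlaps one to the antioxidant core described below. MT1E and MT1F had no promoter in the table used. A match is a description of the letters, and binding was not measured. Among the 144 genes called higher, 112 had a promoter, of which 32.1% held the element, against 34.3% of all genes tested.

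Called genes of the antioxidant programme driven by NRF2 and of iron storage were lower in the inhibitor libraries. The ferritin light chain FTL, which with the heavy chain stores iron (chromosome 19, 49468558 to 49470135), was at 1388 and 1339 FPKM with the inhibitor and 1943 and 1874 with the siRNA. The siRNA controls, at 1834 and 1811, were close to the siRNA libraries here, and the inhibitor controls were at 1225 and 1139. The log2 difference was -0.48 ± 0.05 (adjusted p = 0.00803, 16 of 22 alternatives). Without inhibitor replicate 1, inhibitor replicate 2 or siRNA replicate 1 it was not called (adjusted p = 0.0724, 0.112 and 0.0844), nor with FPKM as deposited (log2 -0.31, adjusted p = 0.164). FTH1, the heavy chain, was at 84.2 and 82.8 against 75.7 and 85.6 FPKM, with overlapping libraries and an interval from -0.13 to 0.23.

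GCLM, the modifier subunit of the enzyme that limits glutathione synthesis (chromosome 1, 94350761 to 94374966), was at 17.97 and 16.7 FPKM with the inhibitor and 26.8 and 25.5 with the siRNA. Both siRNA libraries lay above the siRNA controls, at 21.9 and 18.1. The log2 difference was -0.57 ± 0.09 (adjusted p = 0.0287), but it was called in 12 of 22 alternatives only, and in none that left out an inhibitor or siRNA library (adjusted p = 0.0841 to 0.151). The catalytic subunit GCLC was at 21.8 and 22.3 against 24.8 and 30.1 FPKM (log2 -0.30, adjusted p = 0.16), and HMOX1, which breaks down heme, at 6.49 and 5.77 against 8.20 and 8.67 (log2 -0.40, adjusted p = 0.0684). BLVRB, a biliverdin reductase that was not on the list, was at 31.4 and 33.7 against 45.8 and 45.2 FPKM (log2 -0.47 ± 0.06, adjusted p = 0.0148, 15 of 22). It lost its call without inhibitor replicate 1, inhibitor replicate 2 or siRNA replicate 1 (adjusted p = 0.142, 0.0751 and 0.0875).

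Over the list of NRF2 targets and iron storage, 18 of 22 genes passed the filter. None was called higher, FTL and GCLM were called lower, and 16 were not called, where 1.12% of all genes tested were called higher and 0.56% lower. The list median was a log2 of -0.18, and 14 of the 18 differences were negative, against 6426 of 12846 over all genes tested. Members ranged from -0.57 to 0.42. With FPKM as deposited the median was -0.01, where that of all genes tested was 0.15. NQO1, a classical NRF2 target, was at 147.2 and 148.2 FPKM against 157.9 and 154.1 and was not called (interval -0.18 to 0.02).

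The GCLM promoter is shown for the element by which NRF2 is known to act, and lies at chr1:93909431-93909680 on the minus strand (RefSeq, GRCh38.p14). Capitals mark the match to the antioxidant response element core TGACNNNGC, here read on the opposite strand, whose first letter lies 34 bases before the start.
GCLM: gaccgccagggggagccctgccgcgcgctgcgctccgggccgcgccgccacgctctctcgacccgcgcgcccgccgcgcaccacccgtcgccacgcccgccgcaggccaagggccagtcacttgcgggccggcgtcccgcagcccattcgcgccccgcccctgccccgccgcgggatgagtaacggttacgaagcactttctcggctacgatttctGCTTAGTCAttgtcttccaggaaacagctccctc
This core was in 11% of all promoters of this window, in 12.4% of the genes tested, in 9.8% of the promoters of genes called higher and in 9.4% of those called lower. The FTL window held no match, which says only that these letters are not there.

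Among actin and its partners, 25 genes were tested. TPM2 and ACTG1 were called higher with the inhibitor and none lower, against 1.12% and 0.56% of all genes tested. The list median was a log2 of 0.13. ACTG1, cytoplasmic gamma-actin, was at 1002 and 982.6 FPKM with the inhibitor and 660.8 and 764.2 with the siRNA. Its siRNA controls were at 1007 and 1105, and its inhibitor controls stood furthest apart, at 2453 and 2186, with the siRNA libraries the lowest of all 8. The log2 difference was 0.48 ± 0.08 (adjusted p = 0.0332, 13 of 22 alternatives), and it was not called without inhibitor replicate 1, inhibitor replicate 2 or siRNA replicate 1 (adjusted p = 0.242, 0.151 and 0.14). ACTB, cytoplasmic beta-actin, was at 788.6 and 713.0 against 660.6 and 689.6 FPKM (log2 0.15, adjusted p = 0.251). None of the other tropomyosins was called, with intervals of -0.35 to 0.14 for TPM1, -0.12 to 0.11 for TPM3 and -0.14 to 0.17 for TPM4.

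The ACTG1 promoter, at chr17:81512800-81513049 on the minus strand (RefSeq, GRCh38.p14), holds a CArG box, the element bound by serum response factor, printed in capitals with its first letter 94 bases before the start.
ACTG1: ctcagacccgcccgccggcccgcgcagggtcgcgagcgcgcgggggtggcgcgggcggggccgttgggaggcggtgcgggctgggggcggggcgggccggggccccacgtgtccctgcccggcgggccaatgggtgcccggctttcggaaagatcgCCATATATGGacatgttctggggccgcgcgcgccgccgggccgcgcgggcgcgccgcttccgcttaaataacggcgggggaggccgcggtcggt
A CArG box was in 1.1% of all promoters of this window and in 4 of the 21 promoters of the actin list. TPM2 held none in the same window.

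The rest of the H3K9 machinery differed little. All 30 genes of the list passed the filter, EHMT2 and CBX1 were called higher with the inhibitor, none was called lower, and the median was a log2 of 0.04. The shares of all genes tested were 1.12% called higher and 0.56% lower. CBX1, which encodes HP1 beta, a reader of methylated H3K9, was at 61.3 and 60.4 FPKM with the inhibitor against 46.5 and 47.2 with the siRNA (log2 0.37 ± 0.05, adjusted p = 0.0228, 13 of 22 alternatives). It was not called when any 1 of the 4 libraries was left out (adjusted p = 0.0718 to 0.163). The other HP1 genes had intervals that included 0, from -0.10 to 0.20 for CBX3 and from -0.10 to 0.37 for CBX5. None of the other H3K9 methyltransferases was called. The log2 difference was 0.03 for SETDB1 (19.2 and 19.5 against 19.9 and 18 FPKM), 0.01 for SUV39H1 and 0.06 for SUV39H2, all with overlapping libraries. UHRF1, which reads H3K9 methylation and recruits DNMT1, was at 20.8 and 20.01 against 14.0 and 16.3 FPKM without a call (log2 0.41, adjusted p = 0.0637), and DNMT1 overlapped.

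Among the 12 largest increases, several are short or overlapping transcripts. SNHG9, a host transcript of a small nucleolar RNA (chromosome 16, 2014960 to 2015510), was at 81.9 and 84.3 FPKM with the inhibitor and 39.0 and 35.03 with the siRNA (log2 1.15 ± 0.17, adjusted p = 0.0241, 14 of 22). Its siRNA controls were spread from 56.4 to 90.5. CTD-2651B20.6, a noncoding locus of 308 bases on chromosome 15, was at 14.2 and 10.7 against 5.30 and 2.32 FPKM (log2 1.55 ± 0.28, adjusted p = 0.0364, 9 of 22). Cufflinks values of such short genes depend on fragment length. RP11-321N4.5 was at 2.10 and 2.19 against 0.66 and 0.385 FPKM (log2 1.05, adjusted p = 0.0337, 11 of 22) and overlaps SNX14 and SYNCRIP, and a second entry for NDUFB8 (log2 0.83, 5 of 22) overlaps the main NDUFB8 gene. Of the 79 genes named or examined by rule, 22 overlap another tested gene, among them S100A4, ALDH1A3, RCC2, HSP90B1, MEST, RPL28 and SCARNA9. Reads of overlapping genes cannot be told apart here, since no source used states the strand setting of the counting.

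The protein-coding genes among the largest increases fall into no common group. DHRS3, a retinal reductase that retinoic acid is known to induce, was low but separated, at 1.70 and 2.01 FPKM with the inhibitor and 0.587 and 0.448 with the siRNA (log2 0.91 ± 0.14, adjusted p = 0.0253, 10 of 22). ALDH1A3, which makes retinoic acid, was at 35.8 and 33.4 against 22.9 and 20.3 FPKM (log2 0.66 ± 0.07, adjusted p = 0.00803, 18 of 22), missing the threshold without inhibitor replicate 1 (0.0996) or 2 (0.073). CRABP2, a carrier of retinoic acid in the cell, named after its values were seen, was called in the other direction, at log2 -0.24 (adjusted p = 0.0384, 5 of 22). PNN, the splicing and desmosome protein pinin, was at 26.7 and 27.9 against 15.2 and 17.5 FPKM (log2 0.71 ± 0.07, adjusted p = 0.00584, 18 of 22), and also missed it without either inhibitor library (0.0562 and 0.0788). The inhibitor controls of PNN stood far above both sides, at 70.5 and 70.8 FPKM, and its siRNA controls were at 25.3 and 24.5. FBRSL1 at log2 0.77 and the kinesin adaptor MAPK8IP3 at 0.71 were called in 6 and 7 of 22 alternatives.

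S100A4 differed from these genes in the position of its controls. This calcium-binding protein, known from cell motility, was at 74.7 and 77.8 FPKM with the inhibitor and 50.5 and 46.9 with the siRNA. Here the siRNA controls, at 47.2 and 49.2, sat with the siRNA libraries, and the inhibitor controls were at 56.3 and 52.9. The log2 difference was 0.64 ± 0.06 (adjusted p = 0.00392, 19 of 22, adjusted p = 0.073 without inhibitor replicate 2). S100A10, the partner of annexin A2 in the same S100 gene cluster of chromosome 1, was at 59.6 and 62.7 against 41.5 and 45.6 FPKM (log2 0.48 ± 0.06, adjusted p = 0.0162, 16 of 22). Its inhibitor controls were far higher, at 117.5 and 118.3.

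Of the 12 largest decreases, ACSL5 and PLEKHA4 were low genes with the siRNA libraries above all others. ACSL5, an enzyme that activates long-chain fatty acids, was at 1.63 and 1.95 FPKM with the inhibitor and 3.46 and 3.99 with the siRNA (log2 -0.76 ± 0.14, adjusted p = 0.0381, 8 of 22). The siRNA controls were at 1.33 and 1.43 and the inhibitor controls at 1.62 and 2.16, so the 6 libraries without the siRNA lay together. PLEKHA4, a phosphoinositide-binding protein, was at 1.68 and 1.49 against 3.38 and 3.27 FPKM (log2 -0.74 ± 0.12, adjusted p = 0.0274, 10 of 22), with 1.43 to 1.71 in the controls of both kinds.

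In POGZ the inhibitor libraries stood apart instead. POGZ, a zinc finger protein known to bind HP1 proteins, was at 7.80 and 8.89 FPKM with the inhibitor and 12.1 and 13.7 with the siRNA (log2 -0.57 ± 0.10, adjusted p = 0.0332, 8 of 22). All 4 control libraries, at 11.2 to 14.2, lay with the siRNA libraries, so the inhibitor libraries were the lowest. TEX19, a gene known from the germ line, was at 4.01 and 5.02 against 7.57 and 6.90 FPKM (log2 -0.58 ± 0.11, adjusted p = 0.0411, 5 of 22), with the 4 controls between the sides at 5.53 to 5.96. The glutaredoxin GLRX was at 6.43 and 7.02 against 9.96 and 12.1 FPKM (log2 -0.64, 7 of 22) and overlaps RHOBTB3.

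The remaining large decreases were noncoding or read-through entries. The read-through locus SYNJ2BP-COX16 was at 2.56 and 2.88 against 5.26 and 9.49 FPKM (log2 -1.12, 6 of 22), and overlaps SYNJ2BP and COX16. Its siRNA controls were at 7.13 and 7.43 and its inhibitor controls at 3.62 and 2.61. Each side thus lay near its own controls, which differed from each other in the same direction. RN7SL605P, a 7SL pseudogene that can share reads with near-identical copies, was listed at 0 in 1 inhibitor library and at 0.323 in the other, against 2.93 and 1.19 with the siRNA (6 of 22). RP11-366L20.2, which overlaps HMGA2, was at 2.35 and 1.95 against 4.61 and 5.40 FPKM (log2 -0.93, 11 of 22). Here too the controls differed in the same direction, with siRNA controls at 4.93 and 4.33 and inhibitor controls at 2.12 and 1.41. RP11-18H21.1, CTC-429P9.2 and RP11-152N13.16 were below 5 FPKM in all 4 libraries and called in 9, 6 and 4 of 22 alternatives.

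Several other genes with small p-values are described next, chosen by p after their values were seen. CBFB, the partner subunit of the RUNX transcription factors, was at 54.2 and 51.8 FPKM with the inhibitor and 37.6 and 36.0 with the siRNA, and all 4 controls lay at 51.5 to 53.1. Its log2 difference was 0.51 ± 0.05 (adjusted p = 0.00681, 18 of 22), with adjusted p = 0.0996 without inhibitor replicate 1 and 0.073 without inhibitor replicate 2. RCC2, a regulator of chromosome condensation and of small GTPases, was at 47.1 and 43.5 against 30.6 and 32.5 FPKM (log2 0.51, adjusted p = 0.0155, 17 of 22). ARPP19, an inhibitor of the phosphatase PP2A in mitosis, was at 61.9 and 63.2 against 41.3 and 41.9 (log2 0.58, adjusted p = 0.00681, 16 of 22). These 3 genes had the siRNA libraries as the lowest of all 8. The mitochondrial ribosomal protein MRPL15 (log2 0.49), the mitochondrial import receptor TOMM20 (log2 0.44) and the ribosome-binding protein RRBP1 of the endoplasmic reticulum (log2 0.53) were each called in 15 of 22 alternatives.

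**Figure D4:**
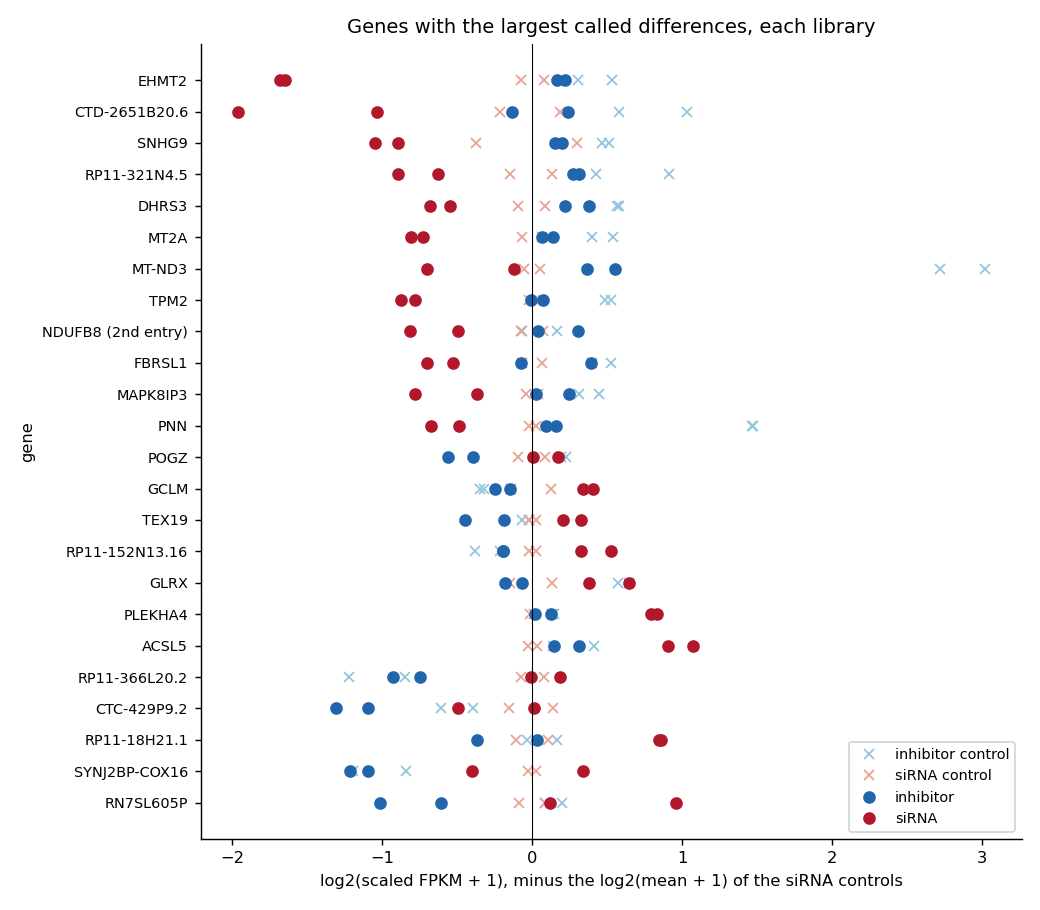
Levels in each library of the called genes with the 12 largest increases and the 12 largest decreases, as log2(scaled FPKM + 1) relative to the siRNA control mean (horizontal axis), 1 row per gene. Dots are inhibitor (blue) and siRNA (red) libraries, and crosses the controls. EHMT2, TPM2 and MT2A have the inhibitor dots near 0 and the siRNA dots to the left, ACSL5 and PLEKHA4 have the siRNA dots to the right, and POGZ has the inhibitor dots to the left.

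Over all 216 called genes, the mean of the siRNA controls was nearer to the inhibitor mean than to the siRNA mean in 176 (81.5%), against 56.6% of all genes tested. The inhibitor controls were nearer to the inhibitor mean in 198 (91.7%), against 66.6% of all genes. Nearer does not mean close, since a control far beyond the inhibitor libraries on the same side also counts. Between the inhibitor libraries and the inhibitor controls, 151 of these 216 genes were called as well, against 36.5% of all genes tested. These are descriptions of levels in shared libraries, with no test. The called genes were more abundant, with a median of 35 FPKM against 8.5 over all genes tested, and had a median locus length of 22667 bases against 27198. They were spread over the genome: the share called ran from 0.85% on chromosome 21 to 2.64% on chromosomes 4 and 6 among the autosomes and the X chromosome.

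Transfection with RNA can be sensed by the interferon system, so interferon-stimulated and RNA-sensing genes were examined as a group. Of 25 tested, none was called in either direction, and the median was a log2 of 0.11. With 1.68% of all genes called, a count of 0 in a list of this size lies near that share and does not set the list apart, and the same holds for the other lists without a call. ISG15 was at 43.9 and 45.6 FPKM with the inhibitor and 46.4 and 44.6 with the siRNA, with an interval from -0.20 to 0.15. IFITM2 was at 25.8 and 22.3 against 17.0 and 19.6 FPKM without a call (log2 0.38, adjusted p = 0.0805), and overlaps IFITM1. None of 8 NF-kB and cytokine genes was called, TNFAIP2 having the smallest p (log2 0.49, adjusted p = 0.0695), and none of 18 immediate early genes. The genes that carry out RNA interference were not called either, 0 of 16. AGO2, the slicing Argonaute, was at 17.5 and 14.4 against 17.3 and 23.7 FPKM (log2 -0.33, interval -0.64 to -0.03, adjusted p = 0.233), and DICER1 at 14.9 and 15.3 against 18.1 and 15.2.

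BIX 01294 is known to induce autophagy in cultured cells. None of 34 autophagy and lysosome genes was called, near the 1.68% of all genes, and the median was 0.01. GABARAPL1, a protein of the autophagosome membrane, was at 4.44 and 4.62 FPKM with the inhibitor and 6.27 and 6.92 with the siRNA (log2 -0.46, adjusted p = 0.122). BECN1, which starts the vesicle, was at 16.9 and 19.9 against 12.9 and 15.7 (log2 0.35, adjusted p = 0.131) and overlaps PSME3. Of 15 fatty acid genes ACSL5 alone was called.

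Stress responses differed in single genes, where 1.68% of all genes tested were called. ATF4, the factor of the amino acid response, was at 239.1 and 241.1 FPKM with the inhibitor and 297.2 and 286.2 with the siRNA (log2 -0.28 ± 0.05, adjusted p = 0.0413, 8 of 22), and its target TRIB3 was at 19.3 and 18.7 against 26.5 and 23.4 (log2 -0.37 ± 0.08, adjusted p = 0.0486, 4 of 22). The other 22 of 24 genes of that list were not called, and the median was -0.04. Of 22 genes of protein folding in the endoplasmic reticulum, the chaperone HSP90B1 was called higher at 237.5 and 228.5 against 183.6 and 180.3 FPKM (log2 0.36 ± 0.05, adjusted p = 0.0178, 14 of 22). None of 16 heat shock genes was called, the smallest p being that of AHSA1, an activator of HSP90 (log2 0.20, adjusted p = 0.0577). None of 21 p53 targets was called either, where GADD45A, a growth arrest gene, was at 7.08 and 7.65 against 5.32 and 4.70 FPKM (log2 0.48, adjusted p = 0.0577).

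Calls among proliferation genes stood at 1 of 29, 0 of 27 and 2 of 20 in the 3 lists examined, against 1.68% of all genes tested. RRM2, the ribonucleotide reductase subunit of S phase, was the only call among 29 genes of G1/S and replication, higher with the inhibitor at 54.5 and 57.1 FPKM against 42.5 and 42.1 (log2 0.39, adjusted p = 0.0267, 13 of 22). None of 27 G2/M genes was called, and TOP2A, a topoisomerase of dividing cells, was at 55.3 and 55.2 against 46.7 and 46.0 FPKM (log2 0.25, adjusted p = 0.0805). Of 20 genes of MYC and ribosome biogenesis, the nucleolar proteins NOLC1 and NCL were called higher. NOLC1 was at 65.4 and 70.1 against 50.2 and 52.4 FPKM (log2 0.39, adjusted p = 0.0228, 14 of 22). NCL was at 115.2 and 122.8 against 66.1 and 87.9 (log2 0.63, adjusted p = 0.0332, 12 of 22). The inhibitor controls stood far above both sides, at 119.9 and 121.1 for RRM2, 137.4 and 138.2 for NOLC1 and 478.0 and 482.6 for NCL. In these genes the siRNA controls lay near the inhibitor libraries. In glycolysis, the glucose transporter SLC2A1 was higher at 27.8 and 27.5 against 18.5 and 19.2 FPKM (log2 0.53 ± 0.07, adjusted p = 0.0178, 13 of 22) and PKM at log2 0.24 (5 of 22), while the median of the 25 genes was -0.03.

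Ribosomal protein genes were called in both directions. Of 83 cytosolic ones, RPL28, RPS21 (13 of 22) and RPL8 (11 of 22) were called higher with the inhibitor and RPS26 and RPL35 (4 of 22) lower. Over all genes tested, 1.12% were called higher and 0.56% lower. In 50 of the 83 both inhibitor libraries lay below both siRNA libraries, and in 10 above, against 26% and 26.5% of all genes. The median was -0.09 with median-of-ratios scaling, where the median of all genes was 0. With FPKM as deposited it was 0.08, against 0.15 over all genes. The sign of the list thus changed with the scaling, while its median stayed below that of all genes in both. The same holds for the 56 replication-dependent histone genes, of which HIST1H2AK was called lower (11 of 22): their median was -0.11, and 0.06 as deposited. RPL28 was at 88.0 and 86.5 FPKM against 64.1 and 63.2 (log2 0.45, adjusted p = 0.0165, 14 of 22). RPS26 was at 516.0 and 536.5 against 630.1 and 653.6 (log2 -0.29, adjusted p = 0.035, 7 of 22). The inhibitor controls lay far above both sides for RPL28, at 378.1 and 420.8, and below both for RPS26, at 455.9 and 458.7. Ribosomal protein genes have many processed pseudogenes, which makes their separate values uncertain.

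Of 12 genes of the mitochondrial genome, MT-ND3 was called higher with the inhibitor (142.2 and 124.9 against 59.3 and 88.8 FPKM, log2 0.87 ± 0.17, adjusted p = 0.0413, 8 of 22), and 10 of the 12 differences were positive, with a median of 0.26. Among all genes tested, 1.68% were called and 6417 of 12846 differences were positive. MT-RNR1, the small mitochondrial ribosomal RNA, had an interval from -0.19 to 0.18. None of 79 nuclear genes of the respiratory chain was called, with a median of -0.05. The siRNA controls had MT-ND3 at 93.2 and 100.4 FPKM and the inhibitor controls far higher, at 791.0 and 642.0.

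G9a is known to keep imprinted and germline genes silent in other cells. Calls among these 2 lists went both ways, where 1.68% of all genes tested were called. The called members were expressed on both sides, so they are not silent genes here. Of 14 imprinted genes, GNAS was called higher with the inhibitor (146.3 and 146.5 against 105.8 and 114.0 FPKM, log2 0.41, adjusted p = 0.0158, 17 of 22) and MEST lower (45.5 and 46.0 against 58.9 and 59.2, log2 -0.36, adjusted p = 0.0228, 13 of 22). Of 22 germline and cancer-testis genes 3 passed the filter, and TUBB3, a neuronal tubulin on that list, was called lower (89.2 and 84.5 against 110.7 and 107.6 FPKM, log2 -0.33, adjusted p = 0.0309, 10 of 22). Among other classes examined, none of 104 zinc finger genes on chromosome 19 was called, and their median was 0.05. Of 14 host genes of small nucleolar RNAs SNHG9 alone was called, and of 28 small structural RNAs of at least 300 bases SCARNA9 was called higher (7 of 22) and RN7SL605P lower (6 of 22).

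**Figure D5:**
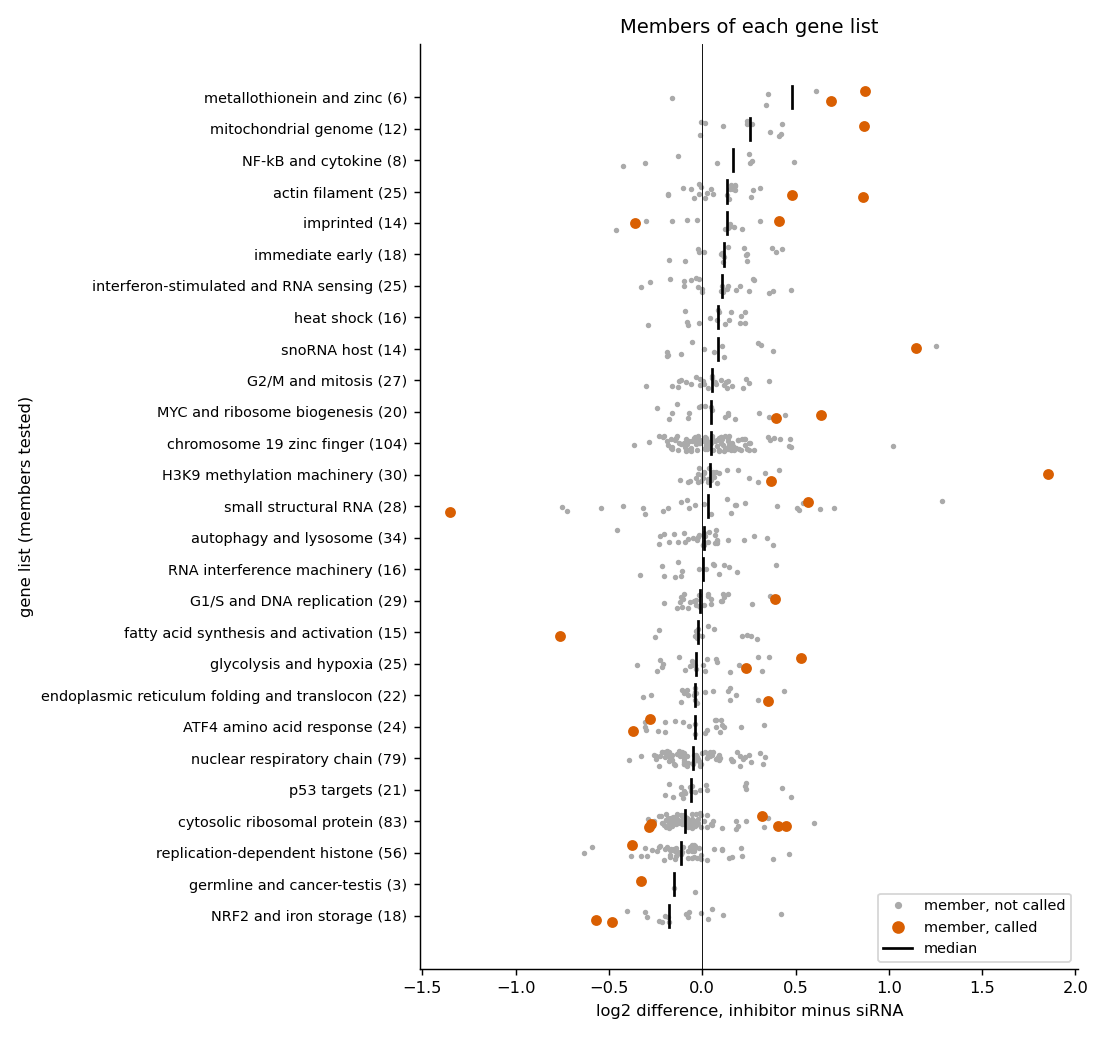
Log2 difference, inhibitor minus siRNA (horizontal axis), of every tested member of each gene list described here (1 row per list, number tested in brackets). Orange dots are called members, grey dots members not called and black bars list medians. Most medians lie within 0.15 of 0. Metallothioneins lie furthest to the right with a median of 0.48, followed by the mitochondrial genome with 0.26. The NRF2 and iron storage list lies furthest to the left with -0.18, followed by the germline list with -0.15.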

How the data were processed

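Gene-level FPKM values were deposited by the authors, 1 file per sequencing run, and come from Cufflinks per the file headers. STAR 2.3.0e, SAMtools 0.1.19 and the human build hg19 are named in the submitters' processing notes. Per the labels' protocols, a stranded total RNA kit was used and sequencing was on a HiSeq-2000. No source used here states the Cufflinks version or options, the annotation release or the strand setting.

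From each file, 63784 entries were summed to 63653 genes. MT-RNR2, marked as not estimable in all 16 runs, was left out, and failed estimates in 7 other genes were set to missing. Both runs of a library were averaged. The 12846 genes that averaged 1 FPKM or more over 8 libraries and spanned 300 bases or more were kept, which dropped 420 shorter genes. Scaling used median-of-ratios factors (0.878 to 1.091). Levels printed are these scaled FPKM. Differences of log2(FPKM + 1) were tested with limma 3.58.1 in R 4.3.3, with a mean-variance trend and all 4 groups in 1 fit (4 residual and 5.04 prior degrees of freedom). P-values are two-sided and Benjamini-Hochberg adjusted at 0.05 over all genes tested. The procedure was also run on simulated data with independent noise at limma's own fitted spreads. That run held no shared library effects, so it cannot speak to the dependence of the calls on single libraries.

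EHMT2 and EHMT1 were named first, then the 12 largest called increases and decreases whose libraries did not overlap, then up to 4 called members of each gene list by smallest p, or up to 2 not called. The 20 genes of smallest p, and those said to be, were added after their values were seen. The results of some of these genes, and of 1 gene list, are not reported here. The comparison, lists and rules were chosen with earlier results of these data known. Promoters are the 250 bases before each start in the RefSeq table (GRCh38.p14), searched on both strands. The searches for E-box, AP-1, CRE and NF-Y motifs were planned, and those for metal, antioxidant and CArG elements were added. The alternatives tried were another pseudocount, filters, scalings, single runs, other limma settings, a replicate block, subsets of groups and each library left out.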

Additional observations from a re-analysis of the deposited data

How the results depend on the processing

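The counts of called genes, given in the order all, higher and lower with the inhibitor (216, 144 and 72 as reported), were 9, 5 and 4 without the filter on low values, where 32406 genes were tested, 400, 245 and 155 with a filter at 5 FPKM, and 28, 23 and 5 with short genes kept. They were 595, 583 and 12 with FPKM as deposited. The first run alone gave 40, 32 and 8 and the second run alone 22, 19 and 3. Without a mean-variance trend limma called 2, 2 and 0, with 2215 genes at an unadjusted p under 0.05. Only the 4 inhibitor and siRNA libraries gave 76, 55 and 21, the 6 libraries without the inhibitor controls 120, 81 and 39, and array weights 322, 206 and 116. Leaving out 1 library gave between 6 and 145, 6 and 101, and 0 and 44, and without inhibitor replicate 2, where none was called lower, 1816 genes were at an unadjusted p under 0.05. A left-out inhibitor or siRNA library leaves 1 sample on that side, which is then assumed to vary like the other groups. Counts with a pseudocount of 0.1 (198, 140 and 58), quantile normalization (244, 160 and 84) and robust empirical Bayes (244, 161 and 83) stayed within 1.5 times. The cause of these changes was not tested, beyond the number of genes or libraries that a setting itself removes or adds.

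With the replicate number as a replicate block, 52 genes were called, 46 higher and 6 lower. The numbers were not taken to pair the libraries: deviations from the group means of same-numbered libraries correlated between -0.098 and 0.048 over the 6 pairs of groups, and the inhibitor and siRNA pair gave -0.098. The 216 genes kept their direction under each setting in which they were tested. Their libraries did not overlap between the sides, nor did those of the 79 genes below, so direction was nearly fixed beforehand. For the 79 genes chosen by the naming rules, 1724 values under alternatives were computed, of which 1132 stayed on the same side of the threshold, 562 lost the call, 30 gained one and 0 changed sign. EHMT2 and TPM2 kept the call throughout. Of the list medians, those of the metallothionein, NRF2, actin, interferon, H3K9 and mitochondrial genome lists kept their sign in all 22 alternatives, and those of the fatty acid, ATF4, endoplasmic reticulum, p53, G1/S, glycolysis, histone, ribosomal protein, nuclear respiratory and germline lists were positive with FPKM as deposited. The median of all genes tested was then 0.15 itself.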
